A study of Mus musculus with 9 samples.

Results

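Transcripts of 9 centromere proteins were followed in mouse round spermatids (RS cells), the haploid germ cells that form after meiosis. The genes were Cenpa, Cenpb, Cenpc1, Cenpn, Cenpe, Cenpf, Cenpt, Mis18a and Hjurp, chosen by gene symbol, and each matched 1 of the 55414 genes listed and 1 of the 25128 genes tested. Polyadenylated RNA had been sequenced in 3 libraries per group after 24 h in culture, and the deposited table holds a read count per gene. All groups received 0.15% DMSO: the vehicle group nothing further (libraries 1 to 3), the oxamate group 24 mM oxamate, an inhibitor of lactate dehydrogenase (libraries 4 to 6), and the third group 24 mM oxamate with 0.3 mM octyl-L2HG, a cell-permeable form of L-2-hydroxyglutarate (libraries 7 to 9). All cells were WT by label and, by the study's methods, were sorted by flow cytometry from testes of mice whose germ cells carry tdTomato switched on by Stra8-iCre. No group received octyl-L2HG without oxamate, so a response to octyl-L2HG was measured only on top of oxamate. The comparisons ask whether RNA for these proteins differed when lactate dehydrogenase was inhibited and when L-2HG was supplied to inhibited cells.

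A centromere is marked by nucleosomes that hold the histone H3 variant CENP-A, which the chaperone HJURP deposits after the Mis18 complex has licensed the site. CENP-C and CENP-N bind the CENP-A nucleosome and, with CENP-T, belong to the constitutive network that stays at the centromere, while CENP-B binds a short motif in centromeric satellite DNA. CENP-E, a kinesin motor, and CENP-F, a large coiled-coil protein, join the outer kinetochore when chromosomes attach to spindle microtubules. Round spermatids have completed both meiotic divisions and no longer divide, and their centromeres gather at the chromocenter.

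The libraries held 32339533 to 39888396 counts. Among markers of round spermatids all 8 had counts in every group, with a summed normalized count of 64024 to 66310 in vehicle, 58494 to 60263 in oxamate and 55009 to 55554 with both compounds. The protamine and transition protein genes Prm1, Prm2, Tnp1 and Tnp2 fell at both steps and carried that change. The other 4 markers summed to 37982 to 39035, 38241 to 38860.2 and 37717 to 39365, and among them Acrv1 was higher with both compounds than in vehicle (0.25, adjusted p = 0.0103, edgeR) while Catsper3 and Tssk1 were lower (-0.24 and -0.20, adjusted p = 0.009 and 0.0299). Catsper3 was also called lower with both compounds than with oxamate (-0.22, adjusted p = 0.0228, edgeR), where Acrv1, Tssk1 and Spaca1 were not called. Spermatocyte markers summed to 19296 to 21968, 19033 to 21937 and 19638 to 20310, and the groups overlapped. Most of that sum was Ccna1, at 11437 to 14864 per library. Of the 8 spermatocyte markers 1 was called in a pairwise comparison, Piwil1, at 0.26 ± 0.07 for oxamate against vehicle (adjusted p = 0.032, edgeR), and 2 of 9 fits with 1 library left out called it. The 8 markers ran from -0.23 for Hormad1 to 0.31 for Meiob in that comparison. Spermatogonium markers summed to 195 to 213 in vehicle, 237 to 248 in oxamate and 227 to 240 with both compounds, so every treated library was above every vehicle library. That separation came from Gfra1, at 123 to 130.04, 154 to 167 and 147 to 161. The other 5 summed to 72.0 to 90.03, 77.2 to 85.5 and 73.0 to 88.9 and overlapped, and Sohlh1 was called lower with both compounds than in vehicle (adjusted p = 0.0313), from 5.7 to 6.4 normalized counts down to 0 to 2.3. The part of these markers in the results was not tested. All 6 Sertoli cell markers had a mean normalized count under 5 in every group. Leydig cell markers summed to 28.4 to 38.2 in vehicle, 19.7 to 27.6 in oxamate and 32.3 to 40.3 with both compounds, so oxamate was below both other groups, and macrophage markers to 129 to 162, 112 to 124 and 117 to 140.4, so oxamate was below vehicle. Peritubular myoid cell markers, at 36.9 to 50.4 in all, overlapped. The part of these markers was not tested either. Over 10682 genes outside the gene lists used here that averaged 100 counts or more, oxamate library 4 and vehicle library 1 lay farthest from the rest of their groups, by 0.224 and 0.157 as a root mean square difference on the log2 scale, against 0.0836 to 0.148 for the other libraries. In such bulk RNA, fewer cells of a type and less RNA per cell cannot be told apart.

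Adding octyl-L2HG to oxamate raised 4 of the 9 genes, where 3.18% of all genes tested were called higher: Cenpe and Cenpf of the outer kinetochore by 1.27-fold each, and Cenpc1 and Cenpn of the constitutive network by 1.24-fold and 1.16-fold. Cenpe and Cenpf were also above vehicle, by 1.25-fold and 1.32-fold. These 4 calls against oxamate depended on single libraries: leaving out any one of libraries 7, 8 and 9 left 0 of them, and leaving out oxamate library 4 or 5 left 1, while the log2 differences stayed between 0.19 and 0.39 over the 4 genes. Oxamate alone changed none of the 9 past the threshold. The 250 bases before the RefSeq transcription start of the 4 genes that rose are printed here (GRCm38.p6), because they are the sequences closest to where transcription of these genes begins. Cenpe lies on the plus strand at chr3:135212313-135212562, Cenpf on the minus strand at chr1:189688087-189688336, Cenpn on the plus strand at chr8:116921490-116921739 and Cenpc1 on the minus strand at chr5:86065584-86065833. Capitals mark matches, on either strand, to 4 motifs searched: the cyclic AMP response element TGACGTCA, the CCAAT box CCAAT, the cell cycle element TTTGAA and the E2F site TTTCCCGC.
Cenpe: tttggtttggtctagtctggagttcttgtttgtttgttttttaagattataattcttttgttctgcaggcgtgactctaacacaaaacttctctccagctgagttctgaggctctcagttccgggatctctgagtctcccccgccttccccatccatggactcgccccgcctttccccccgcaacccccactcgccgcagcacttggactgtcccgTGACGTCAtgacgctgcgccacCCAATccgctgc
Cenpf: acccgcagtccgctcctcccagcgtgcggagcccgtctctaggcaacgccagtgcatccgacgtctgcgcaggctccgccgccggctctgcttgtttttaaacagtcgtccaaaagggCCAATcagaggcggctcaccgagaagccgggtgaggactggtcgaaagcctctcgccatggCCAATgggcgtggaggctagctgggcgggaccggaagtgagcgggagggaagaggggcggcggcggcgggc
Cenpn: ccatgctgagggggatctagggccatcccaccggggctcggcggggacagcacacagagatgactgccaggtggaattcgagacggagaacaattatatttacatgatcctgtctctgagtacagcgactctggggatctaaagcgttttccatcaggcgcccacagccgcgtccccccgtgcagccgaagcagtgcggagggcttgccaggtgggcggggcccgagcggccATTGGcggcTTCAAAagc
Cenpc1: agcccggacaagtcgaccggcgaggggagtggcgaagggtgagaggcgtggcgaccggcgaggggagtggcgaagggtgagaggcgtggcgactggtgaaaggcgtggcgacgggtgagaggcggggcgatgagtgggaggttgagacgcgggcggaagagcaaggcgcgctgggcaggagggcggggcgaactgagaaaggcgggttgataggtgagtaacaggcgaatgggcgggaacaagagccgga
Across 32851 RefSeq windows of this length, TGACGTCA was found in 1.55%, CCAAT in 33.8%, TTTGAA in 16% and TTTCCCGC in 0.895%. Cenpe held the cyclic AMP response element, starting 34 bases before the transcription start, and a CCAAT box at 12 bases. Cenpf held CCAAT boxes at 71 and 132 bases. Cenpn held a CCAAT box read on the other strand at 18 bases and a reversed TTTGAA at 9 bases. None of the 4 motifs was matched in the Cenpc1 window. Among the chosen genes not called, Cenpa held CCAAT boxes at 86 and 109 bases and Hjurp held a CCAAT box at 182 bases, all read on the other strand. Cenpb held an E2F site at 141 bases, and Mis18a and Cenpt had no match. These matches are descriptions of sequence only.

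The levels of the 9 genes spanned several orders of magnitude per exon length. Cenpn had the highest mean level, 3280 normalized counts per kb of exon, followed by Cenpe at 836, Cenpf at 403, Hjurp at 241 and Cenpc1 at 86.4. The ranges of these 5 genes over the 9 libraries did not overlap between neighbours in the order. Exon length was the merged length of all annotated exons of a gene. The transcripts in use were not measured, so the order between genes may differ from that of their RNA. Mis18a (10.2 to 17.7), Cenpb (8.08 to 12.9) and Cenpt (5.02 to 10.7) followed with overlapping ranges of normalized counts per kb. Cenpn lay above 96.8% of the 25027 tested genes with an exon length, and Cenpt above 38.2%. Cenpa came last at 0.217 normalized counts per kb as deposited, above 0.759% of those genes. Whether reads of Cenpa were left out at counting, for example because of an overlapping gene model in GRCm39, was not tested, so this value may not be its RNA level.

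**Figure D1:**
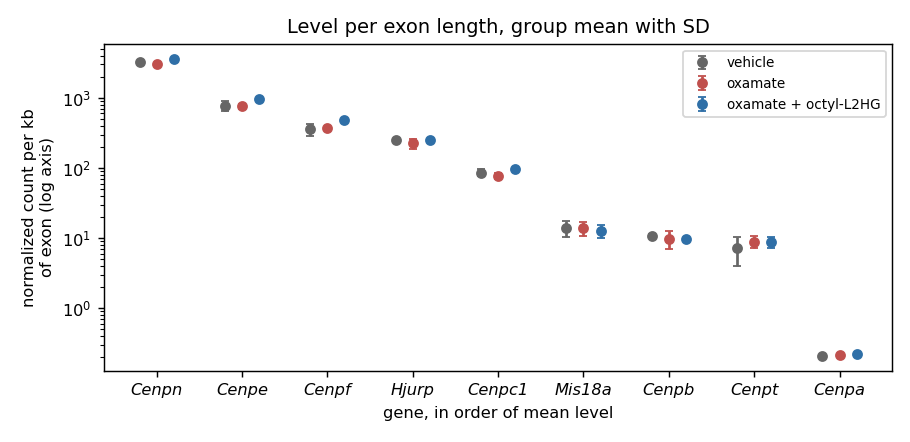
Mean normalized count per kb of exon for each gene on a log axis, with the SD over 3 libraries of vehicle (grey), oxamate (red) and oxamate with octyl-L2HG (blue); no SD is drawn for Cenpa. Levels run from 3280 for Cenpn to 0.217 for Cenpa, averaged over all 9 libraries.

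Cenpa, which encodes the centromeric histone itself, had 12 counts in all 9 libraries together and 0 to 3 counts in any one. No library exceeded 3 counts, the limit that a count of 0 allows, so no fold is given and a difference in Cenpa was not detectable in these counts. Hjurp, the CENP-A chaperone, had normalized counts of 2213, 2024 and 2010 in vehicle, 2219.6, 1760.3 and 1629 in oxamate, and 1961, 2131 and 2135 with both compounds. The groups overlapped, since oxamate library 4 was the highest of all 9 and the other oxamate libraries were the lowest. Hjurp differed by -0.15 ± 0.09 (log2 fold change ± SE) between oxamate and vehicle (adjusted p = 0.444, edgeR's quasi-likelihood test) and by 0.12 ± 0.09 between both compounds and oxamate (adjusted p = 0.474). Without oxamate library 4 it was called lower in oxamate than in vehicle (-0.30, adjusted p = 0.00322) and higher with both compounds than with oxamate (0.27, adjusted p = 0.00416). Without oxamate library 6 the same differences were -0.06 (adjusted p = 0.847) and 0.03 (adjusted p = 0.906).

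Mis18a, a subunit of the complex that licenses CENP-A deposition, had normalized counts of 50.6, 29.4 and 40.3 in vehicle, 44.8, 44.3 and 29.6 in oxamate, and 29.2, 43.8 and 35.6 with both compounds. Cenpb, the satellite-binding protein, had 55.1, 52.1 and 48.5 in vehicle, 62.9, 40.4 and 39.5 in oxamate, and 46.0, 49.6 and 45.9 with both compounds. In both genes the oxamate libraries spanned or overlapped the other groups. Their log2 differences in the 3 comparisons lay between -0.18 and -0.01, with SEs of 0.19 to 0.23 and adjusted p-values of 0.63 to 0.989 (edgeR). In an annotation of build GRCm38, Cenpb overlaps the Spef1 locus on the same strand and shares 20 exon bases with it, 0.409% of its exon bases. An effect of this overlap on its counts was not tested.

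Cenpc1, which encodes CENP-C, had normalized counts of 428, 540 and 486 in vehicle, 384, 441 and 468 in oxamate, and 564, 554 and 513 with both compounds. Every library with both compounds was above every oxamate library, and vehicle overlapped both groups. The log2 difference was 0.31 ± 0.10 against oxamate (adjusted p = 0.0417, edgeR), 0.14 ± 0.10 against vehicle (adjusted p = 0.346) and -0.17 ± 0.10 for oxamate against vehicle (adjusted p = 0.402). The test of any difference among the 3 groups did not call Cenpc1 (adjusted p = 0.069). With 1 library left out, the differences from vehicle, none of them called, ran from 0.06 to 0.23 for both compounds and from -0.25 to -0.08 for oxamate, the ends of both ranges coming without vehicle library 1 or 2.

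Cenpn, the most abundant of the 9 per exon length, encodes a reader of the CENP-A nucleosome. It had normalized counts of 10759.7, 11065 and 10489 in vehicle, 9485, 10044 and 10213 in oxamate, and 11888, 11749.9 and 11547 with both compounds. The 3 groups did not overlap: oxamate was lowest and both compounds highest. Cenpn rose by 0.22 ± 0.06 with octyl-L2HG on top of oxamate (adjusted p = 0.0218, edgeR), while oxamate differed from vehicle by -0.12 ± 0.06 (adjusted p = 0.334) and both compounds differed from vehicle by 0.10 ± 0.06 (adjusted p = 0.278). Every oxamate library was below every vehicle library for 1 of the 9 genes, Cenpn, as for 9.95% of all genes tested.

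Cenpt, the network protein that also recruits the outer kinetochore, had normalized counts of 39.1, 20.9 and 18.3 in vehicle, 37.2, 34.6 and 25.2 in oxamate, and 38.2, 26.5 and 31.8 with both compounds. The groups overlapped, and vehicle library 1 was the highest of all 9. Its log2 difference was 0.32 ± 0.26 for oxamate against vehicle (adjusted p = 0.601, edgeR). That value ran from 0.11 to 0.74 with 1 library left out, the highest without vehicle library 1, and none of these fits called it.

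Cenpe, the kinetochore kinesin, had normalized counts of 5416, 7311 and 7246 in vehicle, 5823, 6956 and 6818 in oxamate, and 8409, 8667 and 8232 with both compounds. Every library with both compounds was above the other 6, and library 1 of vehicle and library 4 of oxamate were the lowest. Cenpe rose by 0.34 ± 0.09 on the log2 scale against oxamate (adjusted p = 0.0164, edgeR) and by 0.32 ± 0.09 against vehicle (adjusted p = 0.016). Oxamate and vehicle differed by -0.02 ± 0.09 (adjusted p = 0.942).

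Cenpf, the outer kinetochore coiled-coil protein, had normalized counts of 4298, 6189.6 and 6139 in vehicle, 5404, 5907 and 5869 in oxamate, and 7473, 7563 and 7165 with both compounds. As for Cenpe, all 3 libraries with both compounds were above the other 6, and vehicle library 1 was the lowest. Cenpf rose by 0.34 ± 0.10 against oxamate (adjusted p = 0.0226, edgeR) and by 0.40 ± 0.10 against vehicle (adjusted p = 0.00552), and oxamate differed from vehicle by 0.05 ± 0.10 (adjusted p = 0.856). Without vehicle library 1 the difference from vehicle was smaller, 0.24 for Cenpf (adjusted p = 0.0208, edgeR) and 0.19 for Cenpe (adjusted p = 0.0982). Cenpf was not called against vehicle without oxamate library 4, nor Cenpe without library 7 or library 8.

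**Figure D2:**
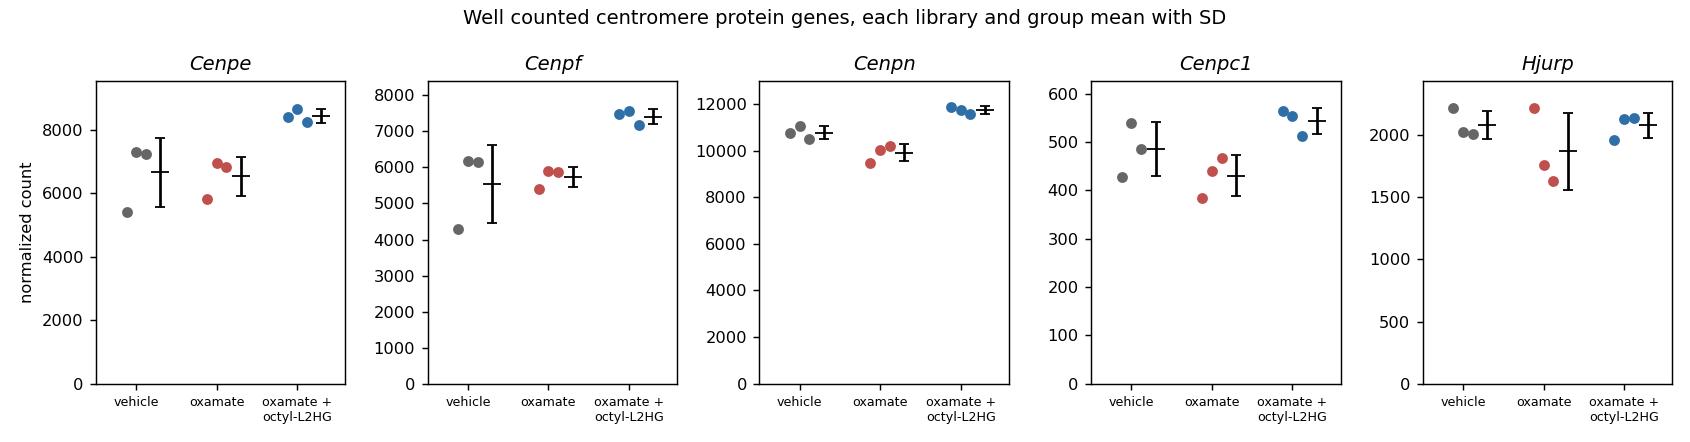
Normalized count (linear axes from 0) of the 5 well counted genes in each library (points) with the group mean and SD (bars, n = 3). For Cenpe and Cenpf the libraries with both compounds, 8232 to 8667 and 7165 to 7563, sit above the other 6; for Hjurp the groups overlap.

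**Figure D3:**
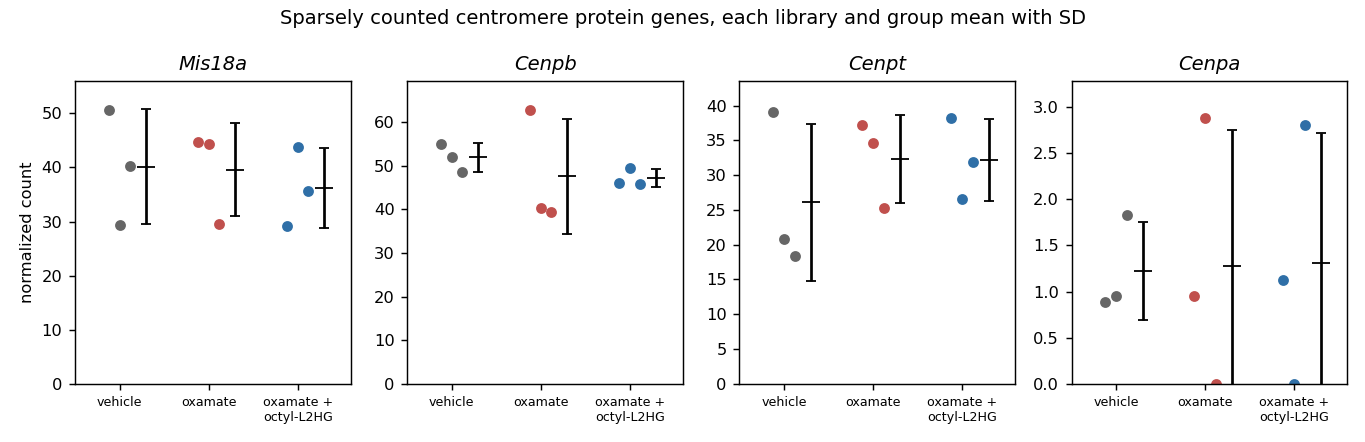
Normalized count (linear axes from 0) of the 4 sparsely counted genes in each library (points) with the group mean and SD (bars, n = 3). The groups overlap in every panel, and Cenpa has 0 to 3 counts per library.

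Read together by comparison, oxamate against vehicle called 0 of the 9 genes by edgeR and 0 by DESeq2, and edgeR gave none an unadjusted p under 0.05, beside 17.3% of all genes tested. Of all genes tested, 5.19% were called, 3.97% higher and 1.22% lower. The median log2 difference of the 8 genes other than Cenpa was -0.07 (-0.17 to 0.32), that of all genes was -0.01 and that of well counted genes, those averaging 100 normalized counts or more, 0.0098. With both compounds against oxamate, 4 of the 9 were called higher and none lower, where 3.18% of all genes tested were called higher and 8.06% lower. The median of the 8 genes was 0.17 (-0.17 to 0.34) against -0.04 for all genes and 0.0099 for well counted genes. The 4 genes called were all well counted. Among the 10715 genes whose normalized counts averaged 100 or more, 7.06% were called higher, and among the 5236 of these with at least 4 kb of exon, 9.89%. Exon length was 3.29 kb for Cenpn, 5.63 kb for Cenpc1, 8.62 kb for Cenpe and 15.4 kb for Cenpf, and its part in the result was not tested. All 4 had every library with both compounds above every oxamate library, as 13.4% of all genes tested did. With both compounds against vehicle, 2 of the 9 were called higher and none lower, where 7.48% of all genes were called higher and 10.6% lower, and the median of the 8 was 0.12 against -0.05 for all genes and 0.03 for well counted genes. Every library with both compounds was above every vehicle library for 3 of the 9, Cenpe, Cenpf and Cenpn, and for 18.0% of all genes. The test of any difference among the 3 groups called the same 3 genes, and 19.8% of all genes.

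The calls against oxamate depended on single libraries and on the scaling. Leaving out any one of libraries 7, 8 and 9 left 0 of the 9 genes called (edgeR), while all genes called in either direction went from 2823 to 1396, 1465 and 1742. Leaving out oxamate library 5 left 1, and leaving out oxamate library 4 left Cenpn with Hjurp in place of the other 3. Over all genes the calls fell to 1429 without oxamate library 5 but rose to 4415 without oxamate library 4. Under each of the 9 fits that left out a single library, the log2 difference stayed positive, at 0.24 to 0.37 for Cenpc1, 0.27 to 0.39 for Cenpe, 0.31 to 0.37 for Cenpf and 0.19 to 0.24 for Cenpn. Scaling by total counts left Cenpe alone (0.30, adjusted p = 0.0424), and DESeq2 called 4. The labels do not say whether libraries came from separate animals or cultures, so the p-values measure the spread between these libraries, which may be technical.

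**Figure D4:**
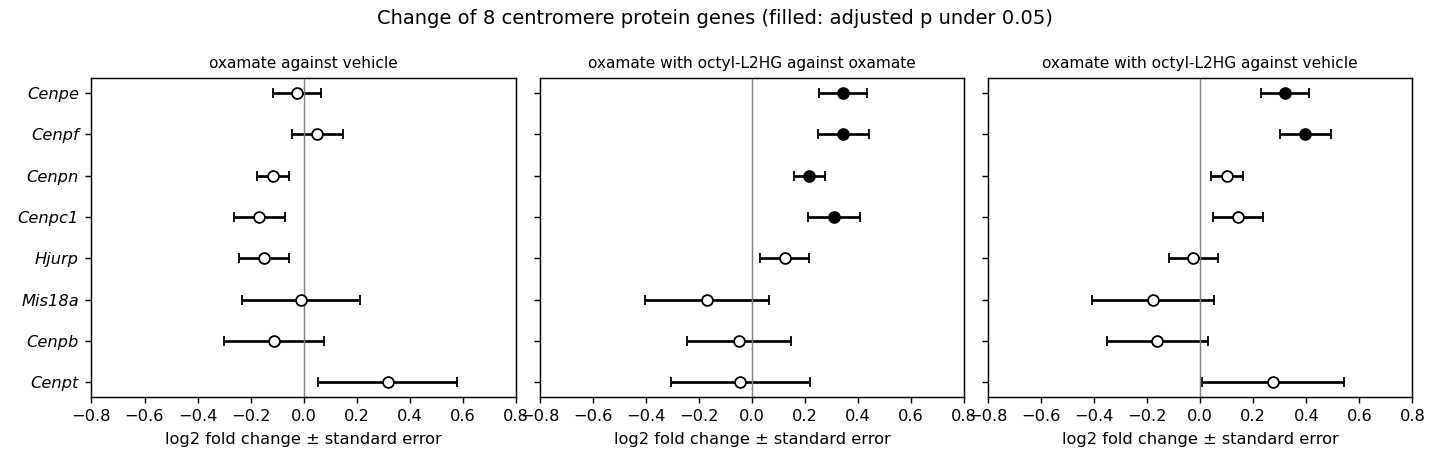
Log2 fold change with its standard error for 8 genes in 3 comparisons; filled points have an adjusted p under 0.05 (edgeR) and Cenpa is left out. No point is filled for oxamate against vehicle, 4 are filled for both compounds against oxamate (0.22 to 0.34) and 2 for both compounds against vehicle (0.32 and 0.40).

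Beside these 9, a list of 39 further centromere and kinetochore genes was read from the same fit, all of them tested. With both compounds against oxamate, 3 rose and none fell, where 3.18% of all genes and 7.06% of well counted genes were called higher, so the share was near that of well counted genes. The rises were those of Zwint, an outer kinetochore scaffold protein, by 0.38 ± 0.09 (adjusted p = 0.0107, edgeR), and the constitutive network genes Itgb3bp (CENP-R) by 0.29 ± 0.09 (adjusted p = 0.0404) and Cenpu by 0.24 ± 0.06 (adjusted p = 0.0179). Zwint had normalized counts of 461, 439 and 441 in vehicle, 426, 359 and 342 in oxamate, and 522, 508 and 467 with both compounds. Every library with both compounds was above every other library. With 1 library left out in turn, Zwint was called in 5 of 9 fits, Itgb3bp in 5 and Cenpu in 6. The median log2 difference of the 39 genes was 0.10.

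Oxamate against vehicle changed 5 of the 39, where 5.19% of all genes were called. These 5 were all well counted, and the share of well counted genes called in this comparison is not given here. With 1 library left out, the calls over all genes ran from 659 to 2288, beside 1303 in the full fit. Cenpi, a network protein needed to load new CENP-A, had 599.7, 651 and 635 normalized counts in vehicle, 783, 806 and 842 in oxamate, and 804, 798 and 842 with both compounds. Vehicle lay below both other groups, which overlapped. Cenpi rose by 0.37 ± 0.08 with oxamate (adjusted p = 0.00439, edgeR) and was 0.35 ± 0.08 above vehicle with both compounds (adjusted p = 0.00204), and each of the 9 fits that left out 1 library called it in both. Zw10, a subunit of the complex that brings dynein to kinetochores, rose by 0.25 ± 0.07 (adjusted p = 0.0472). The 3 genes that fell were Spc25 (-0.34 ± 0.08, adjusted p = 0.0106) and Ndc80 (-0.36 ± 0.10, adjusted p = 0.0465), both of the microtubule-binding NDC80 complex, and Sgo2a (-0.37 ± 0.09, adjusted p = 0.0177), shugoshin 2, which protects centromeric cohesin in meiosis. With 1 library left out in turn, Spc25 was called in 8 of 9 fits and Sgo2a in 7, but Zw10 in 2 and Ndc80 in 1. The median of the 39 was -0.04.

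Sgo2a had normalized counts of 783, 1039 and 886 in vehicle, 649, 701 and 738 in oxamate, and 865, 879.5 and 843 with both compounds. Every oxamate library was below the other 6. With both compounds Sgo2a differed from oxamate by 0.28 ± 0.09, just outside the threshold (adjusted p = 0.0501, edgeR). Spc25 had 1214, 1237 and 1050 in vehicle, 929.8, 928.8 and 897 in oxamate, and 1048, 1103 and 1039 with both compounds. Here too oxamate was below the other 6 libraries, and its difference from both compounds, 0.18 ± 0.08, did not pass (adjusted p = 0.148). Against vehicle, both compounds changed 3 of the 39, where 18.0% of all genes were called. Cenpi and Cenpu (0.20 ± 0.07, adjusted p = 0.0353) rose, and Cenpw, the histone-fold partner of CENP-T, fell by 0.29 on the log2 scale (SE 0.10, adjusted p = 0.0441). With 1 library left out in turn, Cenpu and Cenpw were each called in 3 of 9 fits. The 39 genes had a median of 0.02 in that comparison.

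By complex, 4 of 16 genes of the constitutive network, 1 of 10 of the KNL1, MIS12 and NDC80 complexes and 2 of 10 of the outer kinetochore and corona rose with octyl-L2HG on top of oxamate, the chosen genes included, beside 3.18% of all genes and 7.06% of well counted genes. Of 9 genes for the CENP-A nucleosome, its deposition and licensing, with Cenpb, none was called in any pairwise comparison by edgeR or by DESeq2, where edgeR called 5.19%, 11.2% and 18.0% of all genes in those comparisons. At an unadjusted p under 0.05 edgeR gave 0 for oxamate against vehicle, 1 for both compounds against oxamate and 1 for both against vehicle, beside 17.3%, 23.6% and 30.0% of all genes. Of 3 meiotic centromere protection genes, 1 was called in oxamate against vehicle, Sgo2a, beside 5.19% of all genes.

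**Figure D5:**
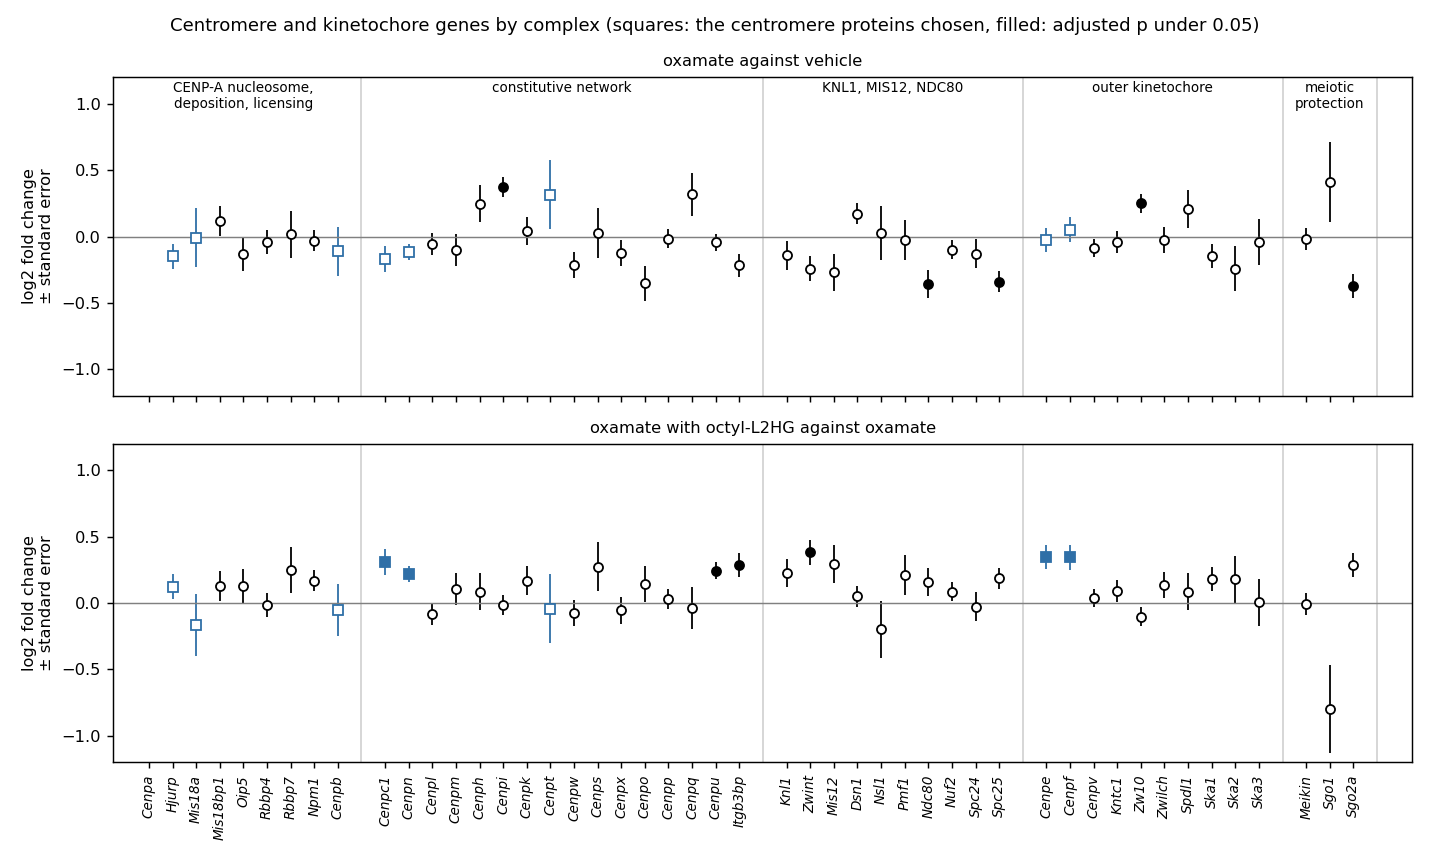
Log2 fold change with its standard error (vertical axis) for the genes of the list by complex, for oxamate against vehicle (top) and both compounds against oxamate (bottom); squares are the chosen centromere protein genes, filled symbols have an adjusted p under 0.05, and Cenpa has no value. In the bottom panel 7 genes are filled, all above 0; in the top panel 5 are filled, 2 above and 3 below 0.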

How the data were processed

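RNA of RS cells was sequenced in 9 libraries, 3 per group. Per the submitters' processing notes, tools were cutadapt 2.10, TopHat2 2.1.1, HTSeq 2.01 and DESeq2 1.36.0, with build GRCm39. The authors deposited the read count per gene, without normalization, and a normalized signal per gene, equal to the count over the library's size factor, which is printed here as the normalized count. The strand setting of the counting is not given in the sources used here. No value column went unused.

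Genes with at least 10 counts in all (25128) entered edgeR 4.0.16 under R 4.3.3 (TMM scaling, robust quasi-likelihood fit of all 9 libraries, Benjamini-Hochberg adjustment over all genes tested, threshold 0.05). DESeq2 1.42.0, other scalings and filters, fits of the groups compared only, other thresholds and each library left out were alternatives. One further alternative left out vehicle library 1 and oxamate library 4 and was chosen after seeing the data. On simulated data of 24634 genes, genes drawn from those averaging 10 counts or more were raised in the oxamate group. For both compounds against oxamate, 89 of 100 raised 2-fold and 38 of 100 raised 1.3-fold were recovered as lower, with 11 unchanged genes called. A missed call at 1.3-fold was thus common over such genes, and the rate at the counts of the chosen genes was not measured.

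The 9 genes and all lists were chosen with earlier results of these data known. Named beside the 9 are list genes called in a pairwise comparison, markers, called cell division genes, and the 3 well counted genes nearest in pattern to the gene with the smallest p in the test of any difference. Exon lengths and gene overlaps came from GENCODE M21 (GRCm38), matched by gene identifier, and promoter windows from RefSeq (GRCm38.p6), in which all 9 genes were found.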

Additional observations from a re-analysis of the deposited data

How the results depend on the processing

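The 17 pairwise calls in the list of 48 centromere and kinetochore genes kept their direction in all 306 values recomputed under the alternatives, of which 212 stayed called and 94 no longer passed. For Mki67, Cdk1, Ccnb1, Piwil1 and the protamine and transition protein genes, 18 calls kept their direction in all 288 values, of which 257 stayed called and 31 did not. With both compounds against oxamate, the 9 chosen genes gave 4 calls, 1 with total counts as scaling, 0 at an adjusted p under 0.01 and 0 to 4 with 1 library left out; the list of 48 genes that holds them gave 7, then 2, 0 and 0 to 8, and 12 at an unadjusted p under 0.05. With both compounds against vehicle, the chosen genes gave 2 calls, 1 with total counts, 1 in a fit of the groups compared only, 1 at 0.01 and 1 to 2 with 1 library left out; the list gave 5, 3 with total counts, 8 with no filter on low counts, 2 at 0.01, 8 unadjusted and 2 to 5 with 1 library left out. For oxamate against vehicle the chosen genes gave 0 to 1 with 1 library left out, and the list gave 5 calls, 1 in a fit of the groups compared only, 1 at 0.01, 10 unadjusted and 1 to 7 with 1 library left out. For any difference, the chosen genes gave 3 (1 at 0.01, 0 to 4 with 1 library left out) and the list 10 (2 at 0.01, 3 to 12). The cause was not tested, except that a left-out library leaves fewer samples. Over all genes, both compounds against oxamate called 798 higher and 2025 lower, and 421 and 2516 with total counts; against vehicle these were 1879 and 2655, and 1231 and 3367.

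Leaving out vehicle library 1 and oxamate library 4 together was tried after both had stood out in the values of the chosen genes; they were then found farthest from their groups over other genes. Leaving out the most distant libraries tends to lower p by the choice itself, though not for every gene. Without oxamate library 4 alone, adjusted p of both compounds against oxamate fell from 0.474 to 0.00416 for Hjurp and rose from 0.0164 to 0.0609 for Cenpe (edgeR). The counts without both libraries are given for completeness and support nothing. In the order oxamate against vehicle, both compounds against oxamate, both against vehicle and any difference, the chosen genes gave 1, 5, 2 and 5 calls. The list gave 8, 12, 10 and 16.

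Values whose sign changed were all uncalled. With 1 library, or both of those libraries, left out, the log2 difference of oxamate against vehicle ran from -0.18 to 0.20 for Mis18a, -0.38 to 0.0030 for Cenpb, -0.15 to 0.055 for Cenpe and -0.10 to 0.14 for Cenpf. That of both compounds against oxamate ran from -0.16 to 0.22 for Cenpb, -0.19 to 0.072 for Cenpt, -0.047 to 0.0061 for Cenpi and -0.14 to 0.040 for Cenpw, and that of both compounds against vehicle from -0.052 to 0.022 for Hjurp, -0.35 to 0.029 for Mis18a and -0.18 to 0.031 for Sgo2a. With no filter on low counts the values were 0.0020 for Cenpt and 0.028 for Cenpi against oxamate and 0.019 for Hjurp against vehicle. Cenpi against oxamate was 0.0090 by DESeq2, 0.0087 with its size factors, 0.0021 with edgeR's filterByExpr and 0.0049 in a fit of the groups compared only.

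The labels number the libraries 1 to 9 across the groups and name no pairs, so no paired analysis was run. Vehicle library 1 and oxamate library 4 were each the lowest of their group for Cenpe, Cenpf and Cenpc1, and the highest for Hjurp. For Cenpn oxamate library 4 was the lowest of its group, while vehicle library 1 was neither lowest nor highest. Whether these libraries share a source or preparation was not tested.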

Other observations

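Of 10 cell division genes listed beside the centromere genes, 1 rose with octyl-L2HG on top of oxamate, beside 3.18% of all genes and 7.06% of well counted genes. This was Mki67, the proliferation antigen that coats condensed chromosomes, with normalized counts of 473, 653 and 667 in vehicle, 506, 624 and 611 in oxamate, and 823, 797 and 791 with both compounds. Every library with both compounds was above the other 6. Mki67 rose by 0.45 ± 0.11 on the log2 scale against oxamate (adjusted p = 0.00926, edgeR) and by 0.41 ± 0.11 against vehicle (adjusted p = 0.00972). Cdk1, the kinase that drives entry into division, went the other way against vehicle, at -0.43 ± 0.11 with oxamate (adjusted p = 0.0273) and -0.41 ± 0.11 with both compounds (adjusted p = 0.0151). Its cyclin Ccnb1 was lower than vehicle with both compounds, by -0.34 ± 0.11 (adjusted p = 0.0459). Without vehicle library 1 the difference of Mki67 from vehicle was 0.26 (adjusted p = 0.0595). With 1 library left out in turn, Mki67 was called in 8 of 9 fits against oxamate and 7 against vehicle, Cdk1 in 4 with oxamate and 6 with both compounds, and Ccnb1 in 4.

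The 3 genes whose pattern over the 9 libraries lay nearest to that of Cenpf, among 10652 well counted genes outside the lists, were Ccdc18, Gm45861 and Gcc2. Their root mean square distances from Cenpf were 0.0501, 0.0681 and 0.0706 on the log2 scale, and that of Cenpe was 0.0576.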
